A study of Mus musculus with 21 samples.

Results

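Solute carriers are membrane proteins that move small molecules and ions across the membranes of cells and organelles. The genes described here carry a symbol of the form Slc, number, a, number. They were represented by the probe set with the highest mean and kept if its signal reached the 75th percentile of all values in the table, 77.0, in 3 or more of 21 arrays. Of 305 such genes on the array 87 were kept, from 32 families, and 218 were not. The glucose transporter genes Slc2a1 and Slc2a3 and the lactate transporter genes Slc16a1 and Slc16a3 were set aside by the same rule. Of the 87 genes 52 reached that signal in all 21 arrays. The last genes inside the filter were Slc38a7, Slc33a1 and Slc37a4, whose signal in the last array needed to pass was 77.8, 79.6 and 80.3, and the first outside were Slc22a23, Slc38a9 and Slc16a4, at 75.4, 74.6 and 74.1.

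Solute carrier families are named by number, and the substrates include amino acids, sugars, vitamins, metals, nucleosides, inorganic ions and, in the large mitochondrial family, the metabolites that pass the inner mitochondrial membrane. Some run downhill, and others are driven by the sodium and proton gradients that pumps set up. In the early embryo they supply growing tissue with the building blocks of protein, nucleotides and membranes, and folate carriers are known for their part in closure of the neural tube.

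The tissue was presomitic mesoderm (PSM), the unsegmented mesoderm beside the caudal neural tube from which the somites form. It came from CD-1 mice, an outbred stock with no allele or treatment that differed between groups, labelled as stage E8.5 and, in the dissection protocol, as 9.0 days post-coitus. After a short pancreatin digestion to free it from its neighbours each PSM was cut into 7 pieces, numbered as parts 1 to 7 with 3 arrays each, and total RNA was amplified over 2 cycles before hybridisation. The labels do not say which end of the PSM carries the number 1, and left and right PSM of an embryo both served as samples without a statement of which replicate numbers they are, so that some arrays share an embryo and p-values reflect the spread among the arrays, not among embryos.

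Values are log2(MAS5 signal + 16), on which a signal of 0 reads 4 and the filter on the genes 6.54. A slope is the change of that value per part number, and "rose" and "fell" mean that the slope passed an adjusted p of 0.05 over all 12143 genes in the fit. All 10 marker genes of PSM and somite in a list had a slope. Tbx6, a transcription factor of the PSM, fell from 9.10 ± 0.17 in part 1 to 5.45 ± 0.52 in part 7 (mean ± SD, n = 3), and Meox1, a homeobox gene of the somite, rose from 5.29 ± 0.59 to 11.40 ± 0.28. Marker lists of endothelium, gut and yolk sac endoderm, neural tube, surface ectoderm, notochord, lateral mesoderm and neural crest had array means between 4.34 and 6.88, and blood is given beside the genes it moved with. In pieces of tissue, fewer cells that express a gene and less RNA per cell cannot be told apart.

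Some markers of the other tissues had a slope too. Of 14 endothelial genes in the fit 0 rose and 3 fell, Egfl7, Etv2 and Eng, and the mean of the list ran from 4.65 to 6.29 over the arrays of part 1 and from 4.64 to 5.61 over those of part 7. Of 8 neural tube genes 2 rose and 2 fell. Of these Fabp7, a fatty acid binding protein of neural progenitors, stood at 9.92 ± 0.44 in part 1 and 6.57 ± 0.98 in part 7 (SD, n = 3, slope adjusted p = 2.03e-07) and Ncam1, a cell adhesion molecule, at 9.10 ± 0.10 in part 1 and 10.17 ± 0.05 in part 7 (SD, n = 3), while the list mean ran from 5.71 to 6.02 in part 1 and from 5.37 to 5.83 in part 7. Gut endoderm had 1 falling gene of 9, Krt8, with list means from 4.97 to 5.62 and 4.63 to 5.18, and visceral and yolk sac endoderm 1 of 8, Rbp4. Surface ectoderm had 1 falling gene of 5, Grhl3, lateral and intermediate mesoderm 1 rising and 1 falling of 6, Wt1 and Bmp4, and notochord and neural crest none of 1 and 3. 

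Most of the 87 solute carrier genes had no slope past the threshold along the PSM, and of those that did more fell than rose. From part 1 to part 7, 6 genes rose, 18 fell and 63 did not pass. The rising genes were the folate carrier gene Slc19a1, the monoamine transporter gene Slc29a4, the monocarboxylate transporter family gene Slc16a6, the mitochondrial basic amino acid carrier gene Slc25a29, the zinc transporter gene Slc39a7 and the orphan gene Slc10a3. The falling genes were led by the erythrocyte anion exchanger gene Slc4a1, the neutral amino acid transporter gene Slc1a4, the zinc and manganese transporter gene Slc39a8, the choline transporter gene Slc44a1 and the thiamine transporter gene Slc19a2. The rises were 6.90% of the genes and the falls 20.7%. Among all 12143 genes in the fit 8.09% rose and 11.1% fell, and among the 7609 genes that reach the same signal filter 9.53% rose and 10.8% fell. The median slope was -0.01 for the solute carriers and -0.001 for all genes in the fit. With quantile normalization 10 solute carrier genes rose and 17 fell, and with arrays centred on their medians 10 rose and 15 fell, so the balance of the directions depended on the scaling. The shares over all genes in the fit moved too. They were 9.45% rising and 9.98% falling with quantile normalization, and 10.7% and 9.65% with median centring. Of the 24 genes 12 reached the signal filter in all 21 arrays, 3 that rose and 9 that fell. Slc19a2 and Slc36a4 reached it in parts 1 and 2 alone, Slc25a16 in parts 1 to 5, Slc16a6 in parts 5 to 7 and Slc25a29 in parts 3 to 7, so that these genes were kept through parts in which they were high, and the counts lean on that choice. With genes kept by their mean over all arrays instead, 4 of 72 rose and 15 fell. Without all arrays of replicate 1 the calls numbered 12, 5 rising and 7 falling, and without those of replicate 2 they numbered 11, 5 rising and 6 falling. Of all genes in the fit 4.58% rose and 6.74% fell without replicate 1, and 5.17% and 6.89% without replicate 2. The 7 and 6 falls, of 87 genes, were then near these shares. Without the arrays of replicate 3 the calls numbered 22, 5 rising and 17 falling. In that setting 5.68% of all genes in the fit rose and 9.71% fell.

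**Figure D1:**
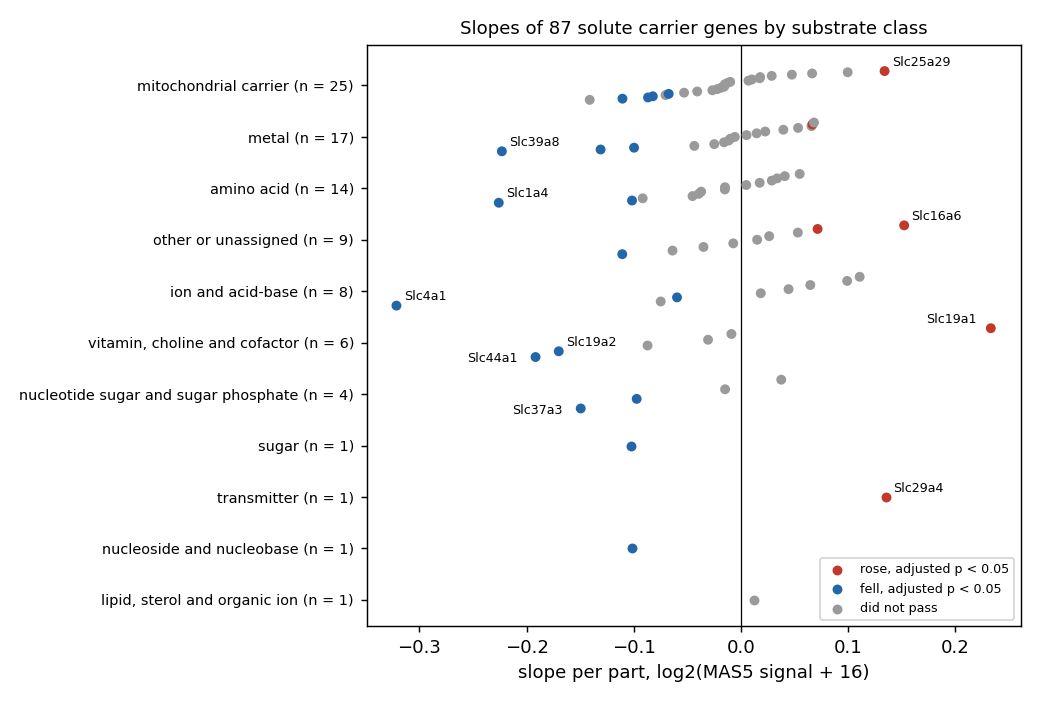
Slope of each of 87 solute carrier genes (points), in log2(MAS5 signal + 16) per PSM part, in rows by substrate class with the number of genes kept in each. Red and blue points are the 6 genes that rose and the 18 that fell. Of the 87 slopes 46 lie within 0.05 of 0, as do those of 7923 of all 12143 genes in the fit. Among genes that reach the same signal filter it is 5049 of 7609.

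Among the genes of vitamin, choline and cofactor transport 1 of 6 rose, 2 fell and 3 did not pass. Slc19a1 encodes the reduced folate carrier, which brings folates into the cell for the synthesis of nucleotides. It read 7.58, 7.53 and 7.92 in the 3 arrays of part 1 and 8.87, 9.22 and 8.78 in those of part 7. Every array of part 7 lay above every array of part 1, and the arrays within a part lay close together. The slope was 0.23 ± 0.029 per part (SE, adjusted p = 1.86e-06), and part 7 exceeded part 1 by 1.28 ± 0.15 (SE, 2.43-fold, adjusted p = 6.45e-06). Parts 1 to 4 lay close together, with part means of 7.68, 7.82, 7.87 and 7.86, and the gene stood at 8.21 ± 0.13 in part 5 and reached 9.00 ± 0.03 in part 6 and 8.96 ± 0.23 in part 7 (SD, n = 3). Part 6 exceeded part 5 by 0.79 ± 0.15 (SE, adjusted p = 0.0129), a 1.73-fold change. Of its other probe sets 1 had a slope of 0.30 and 1, at a mean value of 4.20 near the reading of a signal of 0, of 0.01.

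Slc19a2, of the same family, encodes a thiamine transporter and fell. It read 6.90, 7.19 and 7.05 in part 1 and 5.82, 6.09 and 5.48 in part 7. The 3 arrays of part 1 were above all arrays of the other parts, and they alone carried the gene over the signal filter, so its place among the kept genes rests on the part where it is high. The slope was -0.17 ± 0.039 per part (SE, adjusted p = 0.0025). The fall lay between parts 1 and 2, where the value dropped from 7.05 ± 0.15 to 5.98 ± 0.28 (SD, n = 3), a difference of -1.06 ± 0.21 (SE, adjusted p = 0.0199), and parts 2 to 5 lay between 5.91 and 6.19. Of its other probe sets 1 had a slope of -0.17 and 1, at a mean value of 4.13, of -0.00. The third gene of the family, Slc19a3, a second thiamine transporter, lay below the signal filter in all arrays and had a slope of -0.086 ± 0.026 per part (SE, adjusted p = 0.0194).

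Slc44a1, a choline transporter that supplies the synthesis of phosphatidylcholine, read 8.13, 8.55 and 8.503 in part 1 and 7.10, 7.46 and 7.46 in part 7. The arrays of the 2 parts did not overlap, and the part means were lower at each step from 8.39 in part 1 to 7.27 in part 6. Its slope of -0.19 ± 0.023 per part (SE, adjusted p = 1.11e-06) had the same sign and nearly the same size in the 3 replicate numbers, at -0.20, -0.19 and -0.18. Its other probe sets, at low mean values of 4.65, 4.28 and 4.27, had slopes of -0.09, 0.01 and 0.02. The related gene Slc44a2 had a slope of -0.087 (adjusted p = 0.0674), and Slc46a1, the proton-coupled folate transporter, had -0.031 (adjusted p = 0.501). Slc33a1, which carries acetyl-CoA into the endoplasmic reticulum, did not pass either.

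**Figure D2:**
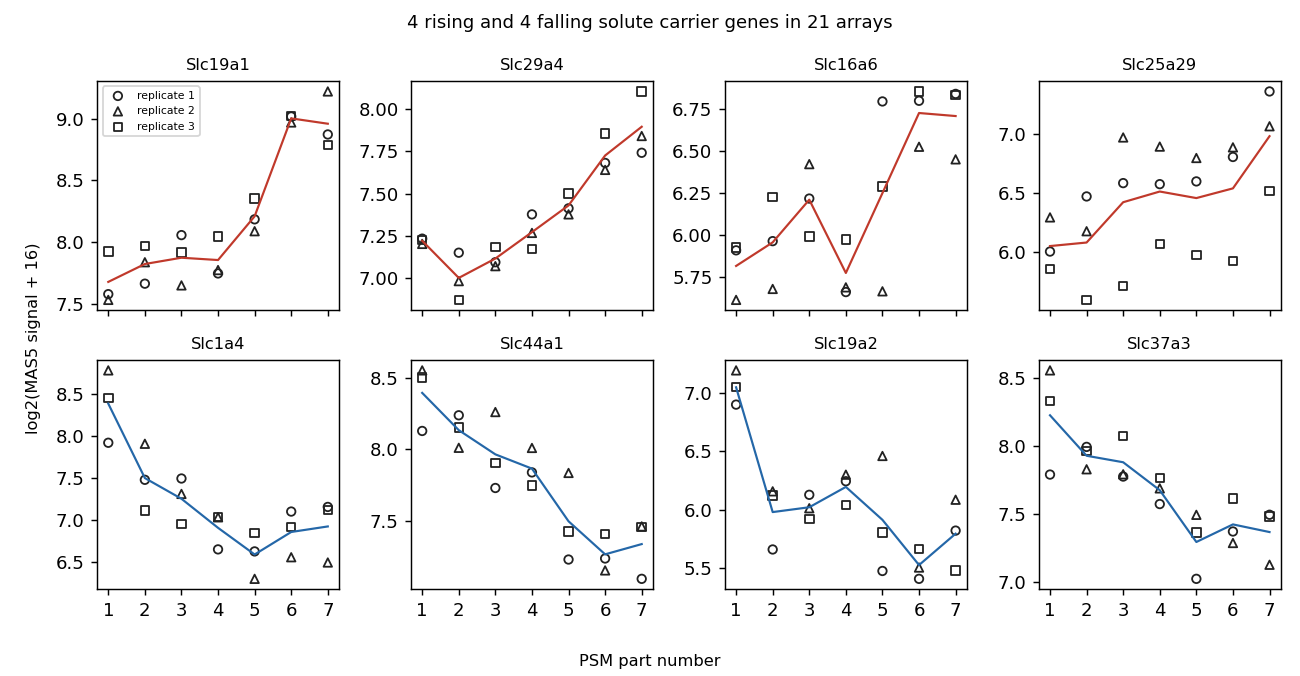
Level of 8 solute carrier genes in the 21 arrays, as log2(MAS5 signal + 16) on a scale of its own in each panel, against the PSM part number. Symbols are single arrays by replicate number and lines join the part means: Slc19a1 climbs between parts 5 and 6, Slc19a2 drops between parts 1 and 2, and Slc44a1 and Slc29a4 change over many parts.

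Among the genes of amino acid transport 0 of 14 rose, 2 fell and 12 did not pass. At an unadjusted p under 0.05, 2 had a positive and 3 a negative slope, where 3740 of all 12143 genes in the fit had a slope either way. Slc1a4, also called ASCT1, exchanges alanine, serine and other neutral amino acids. It read 7.92, 8.78 and 8.46 in part 1 and 7.16, 6.50 and 7.12 in part 7, with no overlap. Its slope was -0.23 ± 0.045 per part (SE, adjusted p = 0.000636), and part 7 was below part 1 by 2.75-fold, a difference of -1.46 ± 0.25 (SE, adjusted p = 0.000446). The mean went from 8.39 ± 0.43 in part 1 to 7.50 ± 0.40 in part 2 and on to 6.59 ± 0.27 in part 5 (SD, n = 3), and parts 6 and 7 stood at 6.86 and 6.93. The step from part 1 to part 2 was -0.89 ± 0.25 (SE, adjusted p = 0.124), which did not pass. Its other probe sets had smaller slopes, of -0.10 and -0.07, and without the arrays of replicate 2 the gene was not called. Slc36a4, an amino acid transporter, read 6.92, 6.62 and 6.23 in part 1 and 5.71, 5.80 and 6.42 in part 7, where the arrays overlapped, and fell with a slope of -0.10 ± 0.028 per part (SE, adjusted p = 0.0122). It reached the signal filter in 3 arrays, 2 of part 1 and 1 of part 2, so its place among the kept genes rests on parts where it is high. Its slope was 0.01 in the arrays of replicate 3 and -0.18 and -0.14 in the others.

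The amino acid transporter genes with the highest signals did not pass. Slc38a2, a sodium-coupled transporter of neutral amino acids that responds to amino acid supply, had a mean signal of 2157 and part means from 10.83 in part 1 to 11.21 in part 4. The slope was 0.034 ± 0.014 per part (SE, adjusted p = 0.0865). Slc38a1 and Slc7a6 had slopes of -0.015 and -0.039, with adjusted p of 0.74 and 0.187. The large neutral amino acid exchanger is a pair of proteins, and neither gene of the pair passed: Slc3a2, the shared heavy chain, had a slope of -0.015 (adjusted p = 0.713) and Slc7a5, the light chain, -0.045 (adjusted p = 0.508). The glutamine transporter gene Slc1a5, the glycine transporter gene Slc6a9 and the neutral amino acid transporter gene Slc38a4 had slopes of -0.037, 0.018 and 0.041. The taurine transporter gene Slc6a6 had a slope of -0.092 (adjusted p = 0.0689), with every array of part 7 below those of part 1.

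The arginine and lysine transporter gene Slc7a1 differed mainly between replicate numbers. It read 8.56, 8.37 and 9.87 in part 1 and 8.56, 8.81 and 9.56 in part 7, and its slope was 0.029 ± 0.062 per part (SE, adjusted p = 0.802). Over all parts the arrays of replicates 1, 2 and 3 averaged 8.37, 8.35 and 9.51. The sodium, potassium and chloride cotransporter gene Slc12a2 likewise averaged 8.86, 8.89 and 9.71. In the same arrays the mean of 11 visceral and yolk sac endoderm markers was 4.48, 4.54 and 5.62. That mean ran from 4.53 to 6.57 over the arrays of part 1 and from 4.36 to 5.37 over those of part 7. Across the 21 arrays, with part means removed, Slc7a1 correlated with it at r = 0.88 and Slc12a2 at r = 0.74, which describes arrays that share embryos and processing. The part these tissues have in the 2 genes' values was not tested.

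Among the metal transporters 1 of 17 rose, 3 fell and 13 did not pass. Slc39a7, or ZIP7, releases zinc from the endoplasmic reticulum and Golgi into the cytosol. It read 8.75, 8.90 and 8.99 in part 1 and 9.20, 9.18 and 9.52 in part 7, without overlap, and rose with a slope of 0.067 ± 0.017 per part (SE, adjusted p = 0.00761). With part means removed it correlated over the 21 arrays with the means of the gut endoderm markers at r = 0.77 and of the visceral and yolk sac endoderm markers at r = 0.71, against -0.06 and 0.23 with part means kept, and their part in its rise was not tested. Slc39a11, or ZIP11, of the same family, read 7.11, 6.75 and 6.53 in part 1 and 6.60, 6.03 and 6.91 in part 7, where the arrays overlapped. It was highest in part 2, at 7.22 ± 0.30, and lowest in part 5, at 6.08 ± 0.19 (SD, n = 3), and fell with a slope of -0.13 ± 0.039 per part (SE, adjusted p = 0.021). Slc30a1, the zinc exporter of the cell membrane, read 7.57, 7.33 and 7.40 in part 1 and 6.93, 6.97 and 6.95 in part 7, without overlap, and fell with a slope of -0.10 ± 0.028 per part (SE, adjusted p = 0.014). It stood between 7.39 and 7.55 in parts 1 to 3 and between 6.84 and 7.07 in parts 4 to 7. Its other probe set had a slope of -0.03 ± 0.031 (SE, mean value 5.38). With the mean of both probe sets Slc30a1 was not called. The ZIP genes of highest signal, Slc39a6 and Slc39a10, zinc importers that act as a pair in cell migration, had slopes of 0.015 (adjusted p = 0.573) and 0.066 (adjusted p = 0.181). The metallothionein genes Mt1 and Mt2, whose products bind zinc, had low mean signals of 39.3 and 49.9, under the level of the filter. They fell with slopes of -0.20 and -0.20 per part, and the arrays of part 1 were widely spread: Mt1 stood at 6.24 ± 1.26 in part 1 and 5.14 ± 0.21 in part 7, and Mt2 at 6.74 ± 1.45 in part 1 and 5.36 ± 0.45 in part 7 (SD, n = 3).

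**Figure D3:**
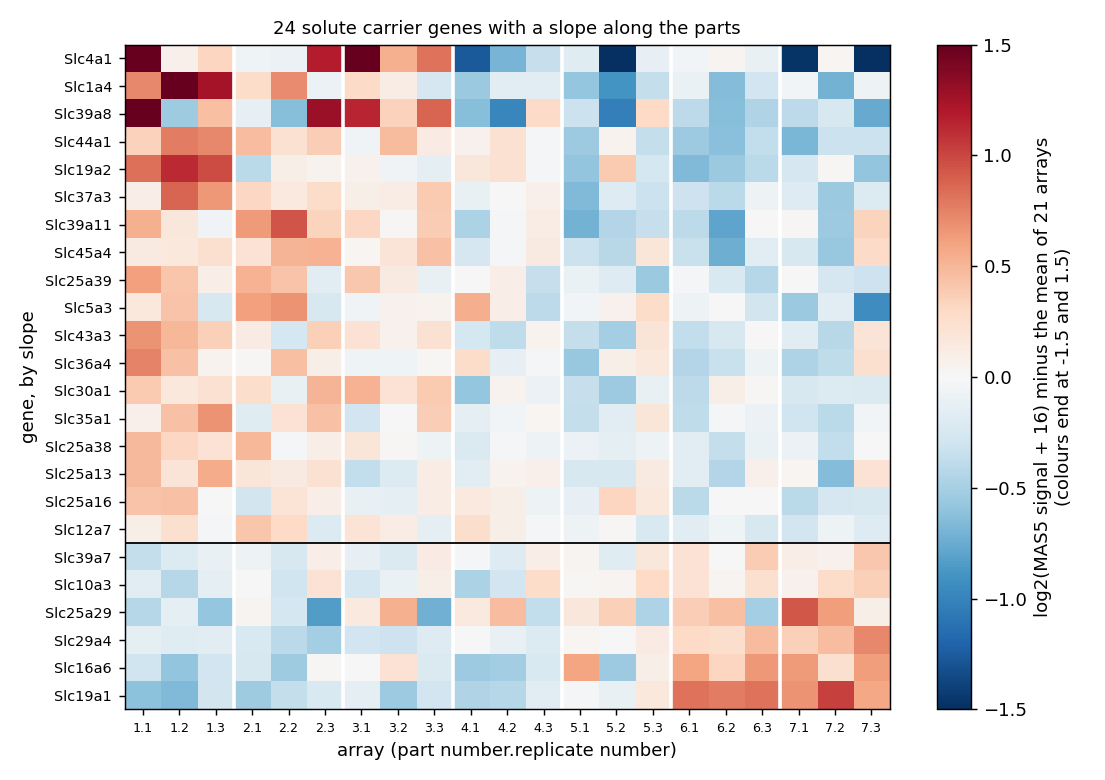
The 24 solute carrier genes with a slope along the parts (rows, by slope) in the 21 arrays (columns, part number and replicate number), as log2(MAS5 signal + 16) minus the gene's mean over 21 arrays. Of the 18 falling genes 12 have their highest part mean in part 1, which the choice of genes by a falling slope favours. Array 1 of part 1 stands out for Slc4a1 and Slc39a8.

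Slc39a8 and Slc4a1 had the widest spread between arrays of a part. Slc4a1, the chloride and bicarbonate exchanger known as band 3 of the red blood cell, read 10.50, 7.68 and 7.93 in part 1 and 6.14, 7.64 and 6.06 in part 7. The arrays of part 7 were all below those of part 1, although the lowest of part 1 and the highest of part 7 were nearly equal. Its slope was -0.32 ± 0.10 per part (SE, adjusted p = 0.0196), and the slopes of the 3 replicate numbers were -0.55, -0.09 and -0.33. Slc39a8, or ZIP8, an importer of zinc and manganese, read 9.92, 6.93 and 7.91 in part 1 and 7.06, 7.22 and 6.70 in part 7, with overlap, and had a slope of -0.22 ± 0.075 per part (SE, adjusted p = 0.0379). Slc25a37, or mitoferrin 1, which takes iron into the mitochondria of erythroid cells, read 9.57, 7.14 and 7.65 in part 1 and 7.02, 7.42 and 7.69 in part 7. Its slope of -0.14 did not pass (adjusted p = 0.182). In all 3 genes the first array of part 1 was the highest of that part.

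Blood markers moved with these genes. Of 12 measured blood markers 11 were in the fit, of which 8 fell and 0 rose. None was at 0: mean signals ran from 12.6 for the erythroid factor gene Nfe2 to 6135 for the embryonic globin gene Hbb-y. The mean over the list lay between 6.58 and 8.44 in the arrays of part 1 and between 6.09 and 6.69 in those of part 7, and its highest array was the first of part 1. Across the 21 arrays, which share embryos and processing, the correlation with that mean was r = 0.95 for Slc4a1, 0.93 for Slc39a8 and 0.87 for Slc25a37, and with part means removed 0.93, 0.92 and 0.89. For Slc30a1 these were 0.79 and 0.60, and for Slc43a3 0.67 and 0.36. For Slc1a4, Slc44a1 and Slc37a3 they were 0.41, 0.39 and 0.36, and -0.45, -0.52 and -0.60 with part means removed. Without the first array of part 1 Slc4a1 and Slc39a8 were not called, with slopes of -0.24 (adjusted p = 0.0766) and -0.15 (adjusted p = 0.142), nor were Slc25a13, Slc25a16 and Slc25a29. The part of blood cells in these values was not tested.

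**Figure D4:**
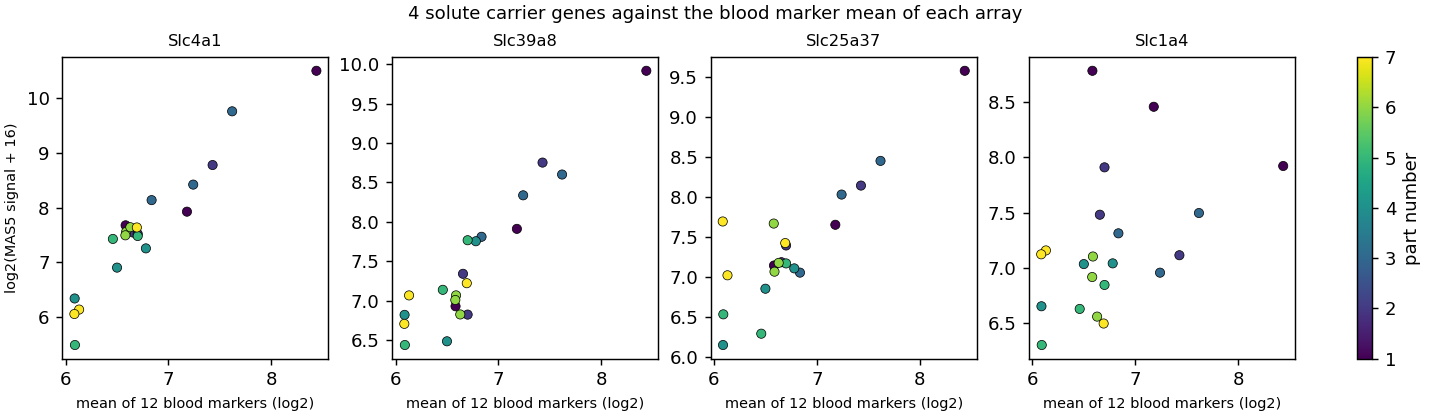
Level of 4 solute carrier genes, as log2(MAS5 signal + 16), against the mean of 12 blood markers in the same array, with colour giving the part number of each of the 21 arrays. Slc4a1, Slc39a8 and Slc25a37 climb with the blood mean up to the first array of part 1 at 8.44, while the highest values of Slc1a4 lie at 6.58 and 7.18.

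Among the mitochondrial carriers, the SLC25 family, 1 of 25 rose, 4 fell and 20 did not pass. Those of highest signal did not pass: Slc25a3, the phosphate carrier, had a mean signal of 4821 and a slope of 0.007 (adjusted p = 0.682), and the ADP and ATP carriers Slc25a5 and Slc25a4 had slopes of -0.015 and -0.019 (adjusted p = 0.24 and 0.269). The part means of Slc25a3 lay between 12.21 and 12.30. Slc25a39, which takes glutathione into mitochondria, had a mean signal of 1738 and read 11.36, 11.16 and 10.84 in part 1 and 10.73, 10.49 and 10.43 in part 7, without overlap. It fell with a slope of -0.11 ± 0.025 per part (SE, adjusted p = 0.002). Its other probe sets had slopes of -0.12, -0.08, -0.07 and 0.00, the last at a mean value of 4.10. Slc25a38, a glycine carrier needed for haem synthesis, read 7.22, 7.05 and 6.95 in part 1 and 6.65, 6.36 and 6.74 in part 7, again without overlap, and fell with a slope of -0.087 ± 0.019 per part (SE, adjusted p = 0.00217).

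Slc25a13, the aspartate and glutamate carrier known as citrin, read 8.34, 8.04 and 8.41 in part 1 and 7.88, 7.20 and 8.07 in part 7, with overlap, and fell with a slope of -0.082 ± 0.027 per part (SE, adjusted p = 0.0324). Slc25a16, linked to coenzyme A supply, read 6.88, 6.89 and 6.47 in part 1 and 6.06, 6.21 and 6.22 in part 7, without overlap. It had the weakest call, with a slope of -0.067 ± 0.024 per part (SE, adjusted p = 0.0466), and was called in 14 of the 35 alternative analyses. Slc25a29, a carrier of basic amino acids, read 6.00, 6.29 and 5.85 in part 1 and 7.36, 7.07 and 6.52 in part 7, without overlap, and rose with a slope of 0.13 ± 0.042 per part (SE, adjusted p = 0.0275). In it the arrays of replicate 3 were lower than the others in every part, with a mean of 5.95 against 6.63 and 6.72. Slc25a10, the dicarboxylate carrier, did not pass by its slope of 0.067 (adjusted p = 0.0694), but part 7 stood above part 1 by 0.51 ± 0.16 (SE, 1.42-fold, adjusted p = 0.0369).

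In the remaining classes Slc29a4 was the only transmitter transporter kept. It encodes a plasma membrane carrier of serotonin, dopamine and other organic cations. It read 7.23, 7.20 and 7.23 in part 1 and 7.74, 7.84 and 8.11 in part 7, without overlap. It was lowest in part 2, at 7.00 ± 0.14, and its mean was higher at each later part up to 7.90 ± 0.19 in part 7 (SD, n = 3). The slope was 0.14 ± 0.02 per part (SE, adjusted p = 2.81e-05), and its other probe set had 0.11. Slc16a6, a monocarboxylate transporter family gene, read 5.91, 5.61 and 5.92 in part 1 and 6.84, 6.45 and 6.84 in part 7, without overlap, and rose with a slope of 0.15 ± 0.034 per part (SE, adjusted p = 0.00223). It reached the signal filter in 5 arrays, which lie in parts 5 to 7. Slc10a3, a gene of the bile acid transporter family without a known substrate, read 6.45, 6.18 and 6.47 in part 1 and 6.67, 6.88 and 6.96 in part 7, without overlap, and rose with a slope of 0.072 ± 0.024 per part (SE, adjusted p = 0.0337).

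Both sugar phosphate and nucleotide sugar genes that passed fell, of 4 kept. Slc37a3, of the sugar phosphate exchanger family of the endoplasmic reticulum, read 7.79, 8.56 and 8.33 in part 1 and 7.49, 7.12 and 7.48 in part 7, without overlap, and fell with a slope of -0.15 ± 0.024 per part (SE, adjusted p = 7.93e-05). Its other probe set had a slope of -0.18. Slc35a1, which takes CMP-sialic acid into the Golgi, read 9.17, 9.54 and 9.77 in part 1 and 8.79, 8.69 and 9.05 in part 7, without overlap, and fell with a slope of -0.10 ± 0.024 per part (SE, adjusted p = 0.00494). With part means removed it correlated with the visceral and yolk sac endoderm markers at r = 0.78 over 21 arrays, and their part in its fall was not tested. Slc5a3, the sodium-coupled importer of the osmolyte myo-inositol and the only sugar transporter kept, read 9.28, 9.55 and 8.87 in part 1 and 8.56, 8.94 and 8.19 in part 7, with overlap, and fell with a slope of -0.10 ± 0.034 per part (SE, adjusted p = 0.0364). Slc43a3, which carries purine nucleobases, read 7.46, 7.29 and 7.15 in part 1 and 6.63, 6.38 and 6.99 in part 7, without overlap, and fell with a slope of -0.10 ± 0.029 per part (SE, adjusted p = 0.0128). Slc45a4 read 7.60, 7.63 and 7.71 in part 1 and 7.23, 6.90 and 7.76 in part 7, with overlap, and fell with a slope of -0.11 ± 0.029 per part (SE, adjusted p = 0.00782).

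Among the 8 genes of ion and acid-base transport 0 rose and 2 fell, Slc4a1 and the potassium and chloride cotransporter gene Slc12a7. The latter read 8.84, 8.98 and 8.72 in part 1 and 8.46, 8.67 and 8.56 in part 7, without overlap, and had a slope of -0.06 ± 0.019 per part (SE, adjusted p = 0.0252). At an unadjusted p under 0.05, 2 of the 8 had a positive and 3 a negative slope, where 3740 of all 12143 genes in the fit had a slope either way. Slc24a3, a potassium-dependent sodium and calcium exchanger, had a slope of 0.11 ± 0.041 per part (SE, adjusted p = 0.0613). The sodium and phosphate cotransporter gene Slc20a1 had a slope of 0.065 (adjusted p = 0.14), the sulphate transporter gene Slc26a2 -0.075 (adjusted p = 0.0762) and Slc12a2 0.10 (adjusted p = 0.215). Other probe sets of Slc12a2 had slopes of 0.15 ± 0.033 (SE, mean value 8.42) and 0.11 (mean value 5.61). With the mean of all its probe sets Slc12a2 was called as rising. The only lipid transporter kept, the fatty acid transport protein gene Slc27a4, did not pass, and none of 10 carboxylate transporter genes on the array was kept.

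How far a slope rested on single arrays differed between the genes. Slc19a1, Slc29a4, Slc16a6, Slc44a1 and Slc37a3 were called without any 1 replicate number and without any 1 array. The call of Slc4a1 ended without array 1 of part 1, and that of Slc12a7 without array 2 of part 1 or array 1 of part 7. The call of Slc25a13 ended without array 1 or 3 of part 1, array 2 of part 6 or array 2 of part 7. That of Slc25a29 ended without array 1 or 3 of part 1, array 3 of part 2, or array 1 or 2 of part 7. That of Slc39a8 ended without array 1 or 3 of part 1, array 3 of part 2, any 1 array of part 6 or array 3 of part 7. That of Slc5a3 ended without array 2 of part 1, array 1 or 2 of part 2, array 3 of part 6, or array 1 or 3 of part 7. That of Slc10a3 ended without array 2 of part 1 or of part 2, array 1 or 3 of part 6, or array 2 or 3 of part 7. Each of the 7 parts held at least 1 array without which the call of Slc25a16 ended. The other called genes kept their call without any 1 array, and lost it without 1 or more of the replicate numbers.

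Marker lists of other tissues also moved with called genes within the parts. With part means removed, Slc10a3 correlated over the 21 arrays with the mean of the lateral and intermediate mesoderm markers at r = 0.81 and of the endothelial markers at r = 0.76. With the visceral and yolk sac endoderm markers Slc25a39 had r = -0.85, Slc12a7 -0.78 and Slc25a29 -0.73, and with gut endoderm Slc5a3 had -0.74. With the neural tube markers Slc45a4, Slc43a3 and Slc25a13 had r = -0.76, -0.74 and -0.72. These arrays share embryos and processing, and the part of the tissues in the slopes was not tested.

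By the F test 10 solute carrier genes differed between any of the 7 parts, as 13.4% of all genes did, and 9 of the 10 were also called by the slope from the same arrays. The other was Slc24a3, which read 5.85 ± 0.40 in part 1, 7.13 ± 0.15 in part 6 and 6.43 ± 0.29 in part 7 (SD, n = 3, F test adjusted p = 0.0135). Without the arrays of replicate 2 the F test called 5 genes.

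Between the ends of the series 5 solute carrier genes were higher in part 7 and 9 lower, of 87, where 6.1% of all genes were higher and 7.3% lower. Of these 14 genes 12 were also called by the slope, which uses the same arrays. The higher genes were Slc19a1, Slc16a6 at 0.90 ± 0.23 (SE, 1.86-fold, adjusted p = 0.0117), Slc29a4 at 0.68 ± 0.12 (SE, 1.6-fold, adjusted p = 0.00088), Slc22a17, a receptor of lipocalin, at 0.59 ± 0.18 (SE, 1.5-fold, adjusted p = 0.034), and Slc25a10. Of the lower genes Slc4a1 had a difference of -2.09 ± 0.66 (SE, 4.25-fold, adjusted p = 0.0394), which rests on the first array of part 1, the array highest in blood markers. Without that array it was -1.19 ± 0.59 (SE, 2.28-fold, adjusted p = 0.239), smaller in size than those of Slc1a4 and Slc19a2, at -1.69 and -1.32. With all arrays Slc1a4 came next, then Slc19a2 at -1.25 ± 0.21 (SE, 2.38-fold, adjusted p = 0.000408), Slc44a1 at -1.06 ± 0.18 (SE, 2.08-fold, adjusted p = 0.000321) and Slc37a3 at -0.86 ± 0.18 (SE, 1.82-fold, adjusted p = 0.00254). The differences of Slc35a1, Slc43a3, Slc25a16 and Slc25a38 were -0.65, -0.64, -0.59 and -0.49, with adjusted p of 0.0316, 0.0428, 0.028 and 0.0363. The 3 arrays of part 7 lay above all 3 of part 1 for 14 solute carrier genes and below for 14, against 14.4% and 14.7% of all genes. Without replicate 1 or without replicate 2 the comparison called 7 genes each, without the first array of part 1 it called 9, Slc4a1, Slc43a3, Slc25a16, Slc25a38, Slc25a10 and Slc22a17 not among them, and without the first array of part 7 it called 6.

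Single steps between neighbouring parts changed few genes. From part 1 to part 2 only Slc19a2 passed, where 0.799% of all genes did, and from part 5 to part 6 only Slc19a1, where 0.486% did. No solute carrier gene passed from part 2 to 3, 3 to 4, 4 to 5 or 6 to 7, steps at which 0.00824%, 0.0494%, 0.321% and 0% of all genes passed. At an unadjusted p under 0.05 the 6 steps in order had 7, 0, 5, 4, 5 and 3 of the 87 solute carrier genes. Of all 12143 genes in the fit they had 1396, 405, 647, 631, 868 and 578. The 2 steps together called 0 genes without the arrays of replicate 1, 2 or 3. They called 1 gene without array 2 or 3 of part 1, the first of part 2, the first or second of part 5, or any 1 array of part 6. Against the other parts, the middle parts 3, 4 and 5 differed in 1 solute carrier gene, Slc19a1, at -0.39 ± 0.081 (SE, adjusted p = 0.0101), where 2.92% of all genes differed. In this comparison 12 of the 87 solute carrier genes and 1565 of all 12143 genes in the fit had an unadjusted p under 0.05. Slc19a1 was not lowest in the middle: its means in parts 1 and 2, 7.68 and 7.82, lay below those of parts 3 to 5, and the contrast reflects the high values of parts 6 and 7. Without replicate 1 and without replicate 2 the count of genes called was 0, without the first array of part 1 or the second of part 7 it was 3, and without array 3 of part 2, array 3 of part 5 or array 2 of part 6 it was 2. By part means 24 of the 87 genes were highest in part 1, 19 in part 2 and 20 in part 7, and 27 were lowest in part 5. The like counts over all genes were not made, so these describe the 87 genes without setting them apart.

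Proteins that work with these carriers were read from a list of partners and pumps. Of 32 such genes in the fit 3 rose, 10 fell and 19 did not pass, where 8.09% of all genes in the fit rose and 11.1% fell. Slc9a3r1, a scaffold that anchors transporters at the membrane, rose with a slope of 0.33 ± 0.022 per part (SE, adjusted p = 1.78e-10). The copper pump gene Atp7a rose with 0.13, and Emb, a chaperone of monocarboxylate transporters, with 0.076. Atp1b1, a subunit of the sodium pump whose gradient drives many solute carriers, fell with a slope of -0.20 ± 0.033 per part (SE, adjusted p = 7.16e-05). Mpc1, of the mitochondrial pyruvate carrier, fell with -0.19, and the calcium pump genes Atp2c1 and Atp2b1 with -0.17 and -0.13. Car2, a carbonic anhydrase of red blood cells, fell with -0.32, and stood at 8.26 ± 1.45 in part 1 and 6.18 ± 0.61 in part 7 (SD, n = 3), so that the arrays of part 1 were widely spread in it as in Mt1 and Mt2, which are also among the 10. Of 31 genes of the amino acid response and of serine, cysteine and aminoacyl-tRNA synthesis 3 rose and 2 fell: Phgdh, the first enzyme of serine synthesis, rose with 0.095, Aars with 0.07 and Chac1 with 0.061, and the enzymes Cth and Cbs, which make cysteine from homocysteine, fell with -0.15 and -0.075. Of 23 solute carrier genes with another letter in the symbol 1 rose, Slc35g1 (0.16), and 2 fell, Slco3a1 (-0.16) and Slc18b1 (-0.13).

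Promoter sequences were searched for 4 motifs. RefSeq windows on GRCm38.p6, from 250 bases before to 50 after a transcription start, existed for 68 of the 87 genes, 92 windows in all. The palindrome CACGTG, the E-box bound by MYC and USF proteins, lay in 17 of 92 windows (18.5%), in 7.15% of all 32851 windows and in 10.5% of the 7985 windows of genes at the same signal filter. It lay in 6 of 25 windows of genes with a slope, which belong to Slc37a3, Slc25a13, Slc39a8, Slc12a7 and Slc39a11. It is shown in capitals in 4 of them:
Slc37a3 chr6:39377708-39377767 (- strand): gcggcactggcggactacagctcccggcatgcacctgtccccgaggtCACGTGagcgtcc
Slc25a13 chr6:6217266-6217325 (- strand): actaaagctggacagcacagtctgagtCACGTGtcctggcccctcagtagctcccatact
Slc39a8 chr3:135825559-135825618 (+ strand): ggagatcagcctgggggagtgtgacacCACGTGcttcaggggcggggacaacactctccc
Slc12a7 chr13:73763648-73763677 (+ strand): gcaggtgaggtCACGTGgcgggcaagggcg
The matches begin 13, 125, 71 and 1 bases before the start in Slc37a3, Slc25a13, Slc39a8 and Slc12a7, and both windows of Slc12a7 hold the same site. Windows of alternative starts of 1 gene can overlap.

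The amino acid response element TGATGNAA, bound by ATF4, lay in 2 of 92 windows (2.17%), in 3.97% of all windows and in 1.88% of those at the filter. Of the genes with a slope Slc1a4 has it, on the opposite strand in capitals, 4 bases before the start:
Slc1a4 chr11:20332699-20332728 (- strand): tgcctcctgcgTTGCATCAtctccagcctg
The T-box element TCACACC lay in 5 windows (5.43%), against 3.98% and 2.94%, among them, in capitals on the opposite strand, 1 of the rising Slc29a4 and 1 of the falling Slc39a11:
Slc29a4 chr5:142701944-142702003 (+ strand): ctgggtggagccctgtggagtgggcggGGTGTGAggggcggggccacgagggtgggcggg
Slc39a11 chr11:113650142-113650201 (- strand): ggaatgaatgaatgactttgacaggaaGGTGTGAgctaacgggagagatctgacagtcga
The Caudal-type element TTTATGN lay in 4 windows (4.35%), against 11.8% and 5.89%, and in none of the 25 windows of genes with a slope. Both strands were searched, and in 1 place matches to 2 of the motifs overlapped. A match describes letters in a window and is neither a binding site nor a cause.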

How the data were processed

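Total RNA of 21 PSM samples was read on Affymetrix mouse arrays. The authors deposited 1 linear intensity, or signal, for each probe set. It was computed with MAS5, according to the submitters' processing notes, its version and scaling target being not given in the sources used here. The method brings arrays to like means, here 151 to 154, which hides any shift common to most genes, and amplification over 2 cycles from small amounts can distort levels. Arrays carry no read depth, and their number limits the precision.

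Groups came from the sample titles. Of 45101 probe sets 64 were controls, 9160 lacked a symbol in the annotation of the platform, 932 were dropped for carrying several, and 34945 carried 1, 34884 of them known to the gene table of RefSeq (GRCm38.p6). Each of 18193 genes was read from its probe set of highest mean. Those of Slc4a1, Slc29a4 and Slc25a39 are of a kind (x) that can also match other transcripts. Of 15 solute carrier genes with a slope and several probe sets, 11 had another with a slope under 50% of the first or of opposite sign, and 2 had one of opposite sign. Those of opposite sign, of Slc44a1 and Slc25a39, had mean values from 4.10 to 4.28, near the reading of a signal of 0. Flat probe sets of Slc19a1, Slc19a2 and Slc4a1, at 4.20, 4.13 and 4.13, lay there too, where a slope can hardly show. The 12143 genes at or above the median of the table, 13.3, in 3 or more arrays were tested as log2(value + 16) in limma 3.58.1 (R 4.3.3), with a trend of variance on level and Benjamini-Hochberg adjustment over all of them at 0.05. The slope came from a straight-line fit with 19 residual degrees of freedom, and the other tests from a fit of 7 part means with 14.

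The genes, the lists and the tests were chosen with earlier results of these data known, and substrate classes were assigned from general knowledge of the families. The text names the largest called changes of each test, the strongest signals and slopes of each class, the genes at the edge of the filter, a fixed set and up to 5 genes per list. Not every gene this allows is named. Of the fixed set Slc7a11, Slc7a3, Slc40a1, Slc11a2, Slc23a2, Slc8a1 and Slc29a1 reached the filter in 0 arrays, and some other genes of it are not reported here. The settings also tried were pseudocounts of 1 and 64, other filters on the genes in the fit or on those described, array weights, quantile normalization, median centring, a fit with no trend of variance, averaging all probe sets of a gene, fitting only the parts compared, a fixed or random block for the replicate number, and leaving out each array or replicate number. On simulated data with 12143 genes the slope recovered 87% of changes of 1 log2 unit from end to end and 100% of changes of 2, part 7 against part 1 recovered 71% and 98%, and the F test 60% and 96%. Of their calls 8.33%, 7.14% and 4.29% were false. The simulated arrays were independent of each other and their changes were straight lines. The arrays here share embryos, so these rates need not hold for them.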

Additional observations from a re-analysis of the deposited data

How the results depend on the processing

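The alternatives left the direction of all 24 called slopes as it was. Slc19a1, Slc29a4, Slc16a6, Slc44a1 and Slc37a3 were called in all 35, and Slc25a16 in 14, Slc39a8 and Slc5a3 in 24 and Slc10a3 in 25. The count of genes with a slope, 24 of 87, was 39 with genes kept at the median of the table, and between 11 and 24 with arrays left out. Genes kept at the median are a larger set, which adds 100 solute carrier genes to the 87. Counts for it here and below are not of the 87 alone. The F test, 10 genes, gave 17 with array weights and 22 with genes kept at the median, and between 5 and 13 with arrays left out. Part 7 against part 1, 14 genes, gave 9 without a filter in the fit, 9 with only the 2 parts, 24 with genes kept at the median and between 6 and 16 with arrays left out. The neighbouring steps, 2 genes in all, gave 0 with only the 2 parts, 1 with genes kept by their mean and between 0 and 3 with arrays left out. The middle parts, 1 gene, gave 2 with a pseudocount of 64, with the fit on genes at the filter, with median centring, with array weights and with genes kept at the median, 3 with the mean of probe sets and between 0 and 3 with arrays left out. Samples of 1 replicate number deviated together (median r = 0.31, lowest 0.037 over 63 pairs, and 18 of 21 arrays closest to their own number), but the labels do not tie the numbers to an embryo. With the replicate number as a block the slope called 32 genes (11 rising, 21 falling; the 24 and also Slc6a6, Slc20a1, Slc24a3, Slc44a2, Slc12a2, Slc39a10, Slc25a20 and Slc25a47), the F test 30, part 7 against part 1 29 and the middle parts 6, and with a random block 30, 26, 26 and 3, and 4 over the steps. By the slope 11.3% of all genes in the fit rose and 13.8% fell with the block, and 10.5% and 13.1% with the random block. For the other tests the shares over all genes with a block are not given here. Slopes near 0 that changed sign were those of Slc38a1 (0.014) and Slc25a4 (0.0038) with the mean of probe sets, and, with arrays left out, of Slc7a1 (from -0.0020 to 0.080), Slc6a9 (from -0.015 to 0.054) and Slc46a1 (from -0.059 to 0.013). The cause of these differences was not tested beyond the fewer samples or other genes that each setting takes in.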

Other observations

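Of the 218 solute carrier genes under the signal filter 100 were still in the fit, and 8 of these rose and 7 fell, shares no higher than the 8.09% and 11.1% over all genes in the fit, so the genes below are given as values only. Their signals are low, where MAS5 values are noisy, and folds are understated on this scale. The steepest was Slc7a7, a light chain for the export of basic amino acids, with a mean signal of 40.9 and a slope of -0.33 ± 0.052 per part (SE, adjusted p = 5.64e-05). Slc38a5 and Slc38a3, both sodium-coupled transporters of glutamine, went opposite ways, with slopes of -0.22 ± 0.055 per part (SE, adjusted p = 0.00578) and 0.20 ± 0.043 per part (SE, adjusted p = 0.00196). Slc29a2, a nucleoside transporter, rose with 0.14 ± 0.025 per part (SE, adjusted p = 0.000217) and Slc31a2, a copper transporter family gene, with 0.14 ± 0.031 per part (SE, adjusted p = 0.00243). Slc50a1, Slc66a1, Slc45a3, Slc5a9 and Slc17a9 rose with 0.10, 0.088, 0.11, 0.11 and 0.11, and Slc2a5, Slc12a5, Slc7a3, Slc19a3 and Slc22a21 fell with -0.11, -0.11, -0.10, -0.086 and -0.068 per part.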
